A study of Caenorhabditis elegans with 2 samples.

Results

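The 10 genes examined here encode regulators of the epidermis of Caenorhabditis elegans and of its seam cells. They are lin-26, rnt-1, bro-1, ceh-16, nhr-23, nhr-25, nhr-73, nhr-74, blmp-1 and grh-1. They were taken by name, with no threshold on a measured value, but the list was drawn up with earlier results of these data known, among them that epidermal regulators had no IDR promoter peak. All 10 were found among the 19973 protein-coding genes annotated on the nuclear chromosomes. The measurement was chromatin immunoprecipitation with sequencing (ChIP-seq) of PAX-3, a paired box transcription factor. There was 1 group of 2 biological replicates, with no second condition. The animals were whole L1 larvae, the first larval stage, of mixed sex and 6 h of age, kept without food after bleaching. Their strain, OP190, carries unc-119(ed3) on chromosome III and the transgene wgIs190, from which PAX-3 is made with a C-terminal GFP-FLAG tag, and the antibody was directed against GFP. The labels used here do not name the promoter of the transgene. Whole larvae mix all tissues, so a site bound in a few epidermal cells is averaged with every other cell, and the files cannot assign a peak to a cell type.

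The worm epidermis consists mainly of large syncytia and of lateral rows of seam cells, which divide like stem cells in each larval stage and add nuclei to the main syncytium. PAX-3 is known to act in the choice between lateral and ventral epidermal fates, which makes regulators of the epidermis and of the seam natural places to look for its binding. LIN-26 is a zinc finger protein needed for epidermal fate. RNT-1 is the RUNX factor of the worm and BRO-1 its CBF-beta partner, and together they promote divisions of seam cells. CEH-16 is the engrailed homologue and acts in seam fate. NHR-23 and NHR-25 are nuclear receptors with roles in molting and in the epidermis, related to vertebrate ROR and to the SF-1 family. NHR-73 and NHR-74 are members of the large nuclear receptor family of the worm, BLMP-1 is a zinc finger homologue of vertebrate BLIMP-1, and GRH-1 is the Grainyhead homologue.

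The deposited peak lists gave 1 position of highest enrichment, the summit, and 1 signal value per peak. A list of 2139 peaks had been thresholded by the authors by irreproducible discovery rate (IDR), a measure of how well the ranks of peaks repeat between replicates. The relaxed lists, which hold background as well as peaks, had 30000 entries each for the pooled data and for each replicate. The weakest IDR peak had a signal of 116.9 and the weakest pooled entry one of 40.04. The lowest deposited −log10 of a q-value was 1.176 on the IDR list and 0.1093 on the pooled list. In each list rank 1 is the highest signal. Signals and ranks are the authors' values and describe peaks within their own list only. Read counts were not used here and depth is unknown. Each gene was searched in 3 regions, which were the promoter window (1000 bp before the annotated start to 200 bp after it), the gene body, and the 10 kb upstream of the start. The last of these includes the upstream part of the promoter window. Coordinates are in build ce11.

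Within these regions the pooled list held 36 summits at 9 of the 10 genes. Sequences around 4 of them are shown, chosen as the strongest pooled summit in the promoter window or, for lin-26 and nhr-25, which have none there, the strongest upstream, with 1 site inside ceh-16 added after its values were seen. Each is written 5′ to 3′ on the plus strand, which is the coding strand of all 3 genes, from the RefSeq copy of WBcel235 (ce11), and the capitals mark the 11 bases centred on the pooled summit. The first sequence lies 3632 bp upstream of the lin-26 start in an intron of lir-1 (chrII:7678417-7678716). The second lies in the promoter window of ceh-16, 94 bp inside the gene, and is the stretch of that summit's window free of annotated untranslated sequence (chrIII:8622771-8622879). The third surrounds the intronic summit of ceh-16, 1866 bp inside the gene (chrIII:8624452-8624751). The last is the strongest site upstream of nhr-25, at 5290 bp from its start in intergenic sequence (chrX:13003054-13003353).
lin-26 upstream: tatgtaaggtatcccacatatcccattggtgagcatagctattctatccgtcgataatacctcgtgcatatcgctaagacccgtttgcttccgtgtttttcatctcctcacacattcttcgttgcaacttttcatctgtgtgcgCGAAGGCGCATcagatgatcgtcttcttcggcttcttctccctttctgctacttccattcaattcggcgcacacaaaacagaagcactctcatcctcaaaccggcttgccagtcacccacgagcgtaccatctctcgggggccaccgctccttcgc
ceh-16 promoter: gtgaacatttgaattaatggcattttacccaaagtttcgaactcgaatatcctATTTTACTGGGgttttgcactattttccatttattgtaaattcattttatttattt
ceh-16 intron: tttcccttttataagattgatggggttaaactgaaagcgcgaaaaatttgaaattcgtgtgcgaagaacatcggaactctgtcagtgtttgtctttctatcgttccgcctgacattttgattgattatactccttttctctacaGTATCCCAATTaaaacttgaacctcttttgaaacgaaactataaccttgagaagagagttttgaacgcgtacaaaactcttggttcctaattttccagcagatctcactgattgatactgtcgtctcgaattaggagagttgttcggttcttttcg
nhr-25 upstream: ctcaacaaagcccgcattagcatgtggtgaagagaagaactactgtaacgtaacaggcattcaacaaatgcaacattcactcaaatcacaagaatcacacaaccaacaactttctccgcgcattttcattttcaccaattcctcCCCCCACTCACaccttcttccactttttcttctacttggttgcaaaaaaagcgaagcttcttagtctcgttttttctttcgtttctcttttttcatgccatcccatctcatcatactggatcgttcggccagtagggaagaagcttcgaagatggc

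Their GC contents were 50%, 27.5%, 38% and 42.7%. None of these stretches holds GTCACG, a core that paired domains recognise, or the site of paired-type homeodomain dimers, which is TAAT and ATTA around any 3 bases, on either strand. The same held for all 36 summits at the 10 genes when 300 bp centred on each were searched on both strands, and 0 of 36 allows a share of up to 8.33%. Among all pooled windows of that length 6.57% held GTCACG and 1.36% held the homeodomain site, and among IDR windows 10% and 1.54%. The GC content of the 36 windows averaged 38.8%, against 38.9% in all pooled windows. No match says only that these letters are missing from these windows.

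The promoters of the epidermal regulators held no IDR summit. The count was 0 of 10, against 6.99% of all protein-coding genes. By counting error alone 0 of 10 allows a share of up to 30%, a range that includes the background share. The absence of such peaks at epidermal regulators was already known when the genes were listed, so this count is no independent result. The gene bodies held none either (0 of 10, against 2.66%). Upstream the count was 3 of 10, namely nhr-23, blmp-1 and grh-1, against a background of 21.0% of all genes. None of these 3 summits lay between the gene and its nearest coding neighbour upstream, where 8.91% of all genes had an IDR summit. With so few genes no test was made, and the counts are given as a description beside the background.

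**Figure D1:**
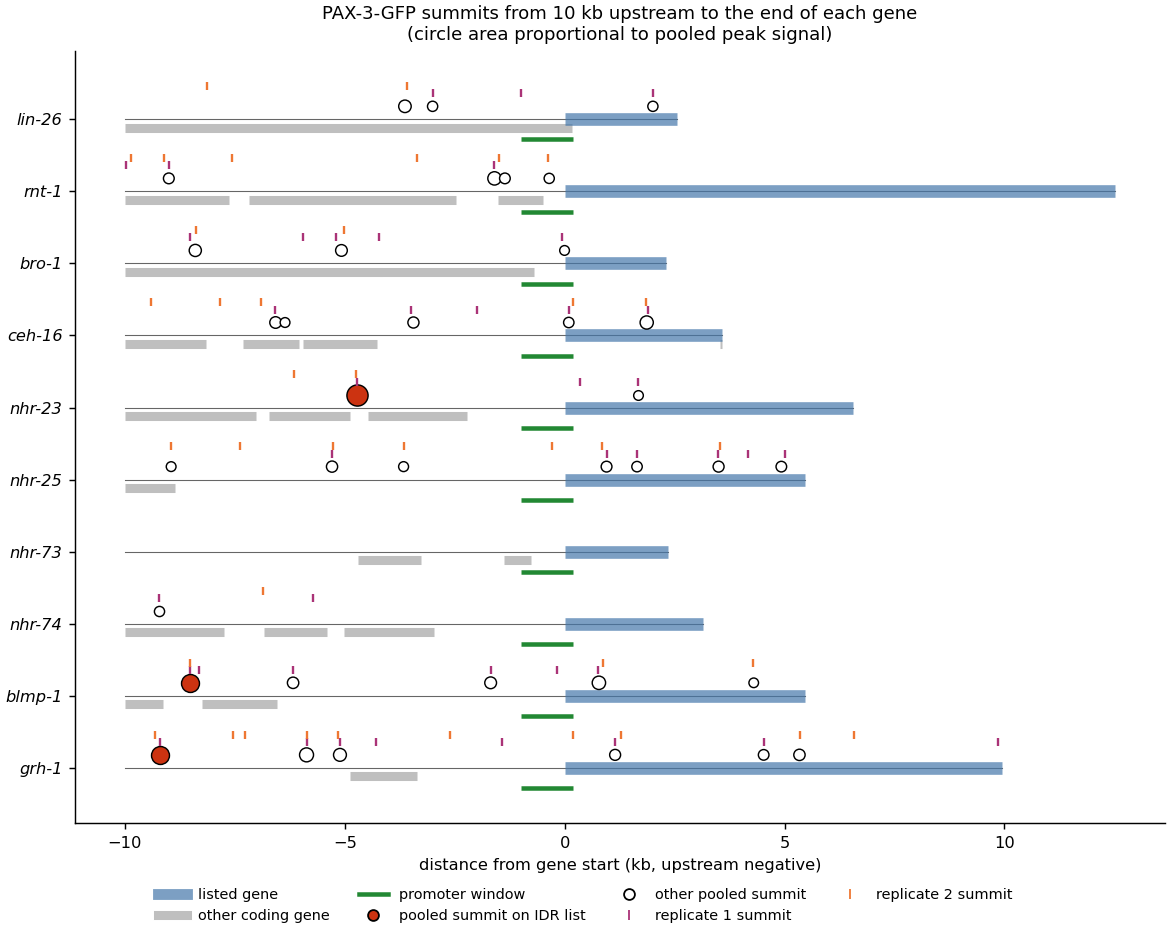
Position of every summit at the 10 genes, with the distance from the gene start in kb on the horizontal axis and 1 gene per row (blue, the gene; grey, other coding genes; green, promoter window). Circles are pooled summits with area proportional to signal, red where the peak is on the IDR list, and ticks are replicate summits. The 3 red circles lie at 4727, 8529 and 9207 bp upstream, and the row of nhr-73 is empty.

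The strongest site of the set lay upstream of nhr-23, the receptor gene of the molting cycle. Its pooled signal was 196 (rank 920 of 30000, −log10 q 2.15), at 4727 bp upstream of nhr-23 (chrI:7209806-7210229). It was present in both replicates, with a signal of 94.3 at rank 1087 in replicate 1 and of 105 at rank 790 in replicate 2, at summits 3 and 8 bp away. The summit fell between the divergent genes C01H6.3 and C01H6.4, at 152 bp and 253 bp upstream of their starts, and so in the promoter windows of both. The whole of C01H6.4 lay between the summit and nhr-23.

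At blmp-1 the IDR summit lay 8529 bp upstream, with a pooled signal of 141 and rank 1597 (chrI:10400561-10400984). Replicate 1 gave 59.5 at rank 2452 and replicate 2 gave 78.6 at rank 1289, both within 5 bp of the pooled summit. Here again the summit sat between divergent neighbours, 596 bp upstream of cup-2, a Derlin family gene, and 291 bp upstream of tag-353. It also lay 67 bp downstream of the start of F25D7.11, an annotated noncoding RNA gene.

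The site at grh-1 had the same rounded pooled signal, 141, at rank 1581 and 9207 bp upstream (chrI:1277150-1277573). Unlike the sites at nhr-23 and blmp-1, it lay in intergenic sequence outside the promoter window of any coding gene. The coding gene Y48G8AR.8 lay between it and grh-1. The replicates differed more at this site. Replicate 1 gave 98.3 at rank 1025 at the pooled summit itself. The nearest replicate 2 summit was 112 bp away, with 52.7 at rank 2863, and so was not matched within the 100 bp used here.

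The gene rnt-1 lay just outside this count. The IDR summit nearest to it lay 10080 bp upstream, in an intron of dhhc-11 (signal 130, rank 1812, chrI:5765801-5766224). In replicate 1 the summit of that region was placed at 9974 bp, inside the 10 kb, with 65.3 at rank 2039. Replicate 2 had a summit at 9864 bp, with only 26.6 at rank 19149. With overlap of the peak interval in place of the summit, rnt-1 joined the upstream IDR count, which became 4 of 10 (21.4% of all genes). For the other 6 genes the nearest IDR summit was between 10505 bp (bro-1, signal 313 at rank 434, in the promoter window of npp-6, a nucleoporin gene) and 64101 bp (lin-26, signal 126 in the 3′ UTR of cdc-42) from the start. The nearest IDR summit to nhr-25 lay 32651 bp upstream in the promoter window of ppk-3, and that to ceh-16 lay 55789 bp downstream of its start in an intron of fli-1. Counted over all 10 genes, 6 had their nearest IDR summit in the promoter window of another coding gene, as did 56.5% of all genes. The median distance from gene start to the nearest IDR summit was 11.375 kb for the 10 genes and 20.184 kb for all genes.

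Relaxing the list to all 30000 pooled entries brought promoter summits to 3 of 10 genes, rnt-1, bro-1 and ceh-16, against 36.7% of all genes. All were weak. At rnt-1 the summit lay 351 bp upstream in intergenic sequence, with a signal of 45.4 at rank 22891. That at bro-1 was almost at the start, 2 bp upstream, with 41.4 at rank 28032. At ceh-16 the summit was the one printed above, 94 bp inside the gene in an intron, with 47.3 at rank 20632. Of all genes with a pooled promoter summit, 17.6% had a weaker strongest summit than rnt-1, 4.78% a weaker one than bro-1 and 23.1% a weaker one than ceh-16. The median rank was 22891 for these 3 genes and 10722 for the 7338 genes with a pooled promoter summit.

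**Figure D2:**
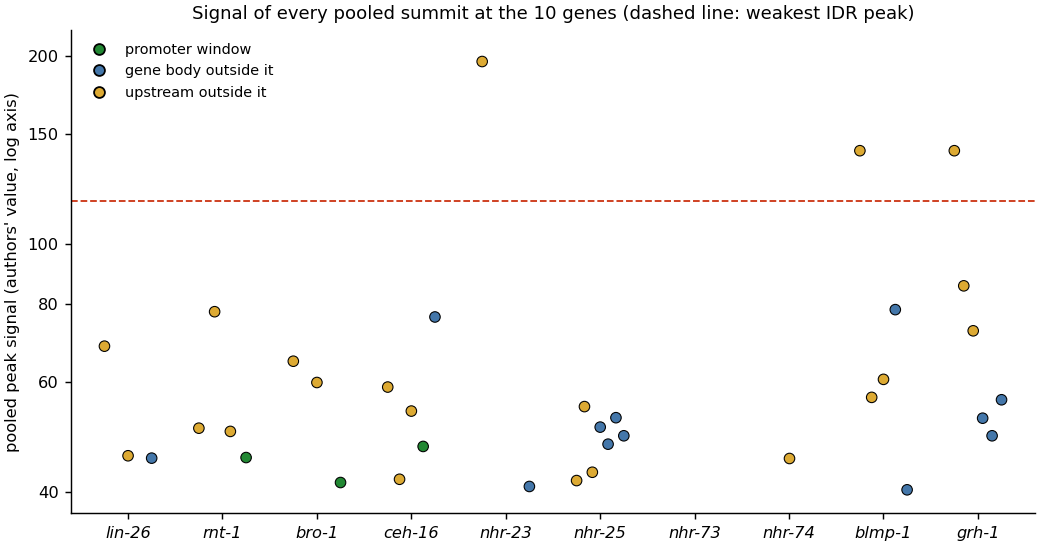
Signal of each of the 36 pooled summits, by gene on the horizontal axis and on a log scale on the vertical axis, coloured by the region that holds it. The dashed line is the weakest IDR peak at 116.9, which only 3 summits exceed, all upstream, while the promoter summits (green) lie between 41.4 and 47.3.

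None of these promoter summits was found at the same place in both replicates. Within 100 bp, the rnt-1 summit was matched only in replicate 2 (signal 26, rank 20416) and that of bro-1 only in replicate 1 (26.7, rank 20868). The ceh-16 summit was matched in replicate 1 (29.7, rank 15970, 2 bp away), while the nearest replicate 2 summit was 103 bp away (30.7, rank 12932), just past the limit. Of the 10 genes 0 therefore had a promoter summit matched in both replicates, against 17.3% of all genes, and with a limit of 200 bp ceh-16 had one (20.3% of all genes).

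Each replicate alone placed summits in 4 promoter windows, and ceh-16 was in both sets. Replicate 1 had summits at lin-26, bro-1, ceh-16 and blmp-1 (background 36.7%), and replicate 2 at rnt-1, ceh-16, nhr-25 and grh-1 (background 37.5%). Outside ceh-16 their ranks ran from 20416 to 26181. The lin-26 summit of replicate 1 lay 986 bp upstream in a coding exon of lir-1, the gene that precedes lin-26 and overlaps its start. At blmp-1 it lay 165 bp upstream (signal 25, rank 24404). In replicate 2 the summit at nhr-25 lay 278 bp upstream (23.4, rank 26181) and that at grh-1 179 bp inside the gene in a coding exon (25.8, rank 20786).

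Several of these genes have more than 1 annotated transcript start, and this mattered for the receptors. With windows at every transcript start, nhr-23 and nhr-25 joined the relaxed count, which rose from 3 to 5 of 10 (background 40.6%). For nhr-25 the summit lay 953 bp inside the gene, in sequence annotated as a coding exon, with a signal of 50.8 at rank 17271. It was matched in both replicates, with 30.9 at rank 14264 in replicate 1 and 22.2 at rank 29553 in replicate 2. For nhr-23 it was the intronic summit 1665 bp inside the gene, which had a signal of 40.8 at rank 28863 and was matched only in replicate 1. The IDR count in promoter windows stayed at 0 of 10 with every transcript start, against 7.57% of all genes.

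**Figure D3:**
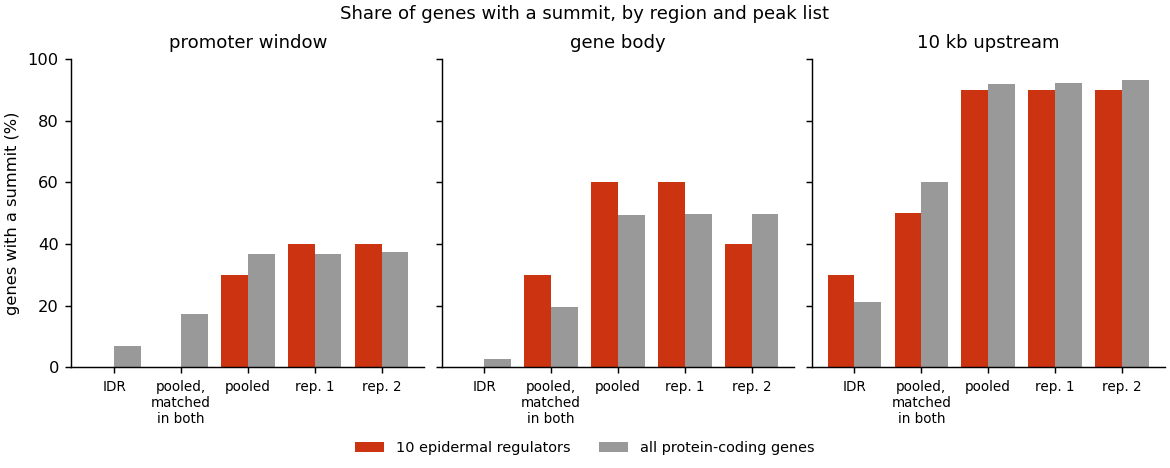
Percentage of genes with a summit in the promoter window, the gene body and the 10 kb upstream, for each peak list on the horizontal axis (red, the 10 genes; grey, all protein-coding genes). The red bars are absent in promoter windows for the IDR list and for summits matched in both replicates, and reach 30% and 40% in the relaxed lists, beside grey bars of 36.7% to 37.5%.

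Inside the genes the relaxed list marked 6 of 10, which were lin-26, ceh-16, nhr-23, nhr-25, blmp-1 and grh-1, against 49.3% of all genes. The 10 genes are long, with a median length of 4526 bp against 2027 bp for all genes. Per kb of gene body the 10 genes held 0.241 pooled summits and all genes 0.295. By replicate the counts were 6 of 10 in replicate 1 (background 49.6%) and 4 of 10 in replicate 2 (49.7%), and summits matched in both were found in 3 of 10 (19.5%), namely ceh-16, nhr-25 and blmp-1. The strongest site inside any of them was in an intron of blmp-1, 779 bp from the start, with a signal of 78.4 at rank 4982. It was matched in both replicates, at 48.7 and rank 3880 in replicate 1 and at 31.4 and rank 12142 in replicate 2. The intronic site of ceh-16 printed above was close to it in signal, with 76.3 at rank 5386. Its replicate signals were 44 at rank 5069 and 32.4 at rank 11084.

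These sites at blmp-1 and ceh-16 were stronger than the strongest gene body summit of 84.4% and 82.7% of the genes that had one, in the pooled list. In replicate 2 the same shares were 54% and 58.3%, so the position within the list was lower in that replicate for both genes. Both were below the IDR list, whose weakest peak had a signal of 116.9. Their −log10 q was 0.422 at blmp-1 and 0.392 at ceh-16, against at least 1.176 on the IDR list. The gene body of nhr-25 held 4 summits, the most of the set, with signals between 47.7 and 52.6. Those at 953 and 3501 bp were matched in both replicates, while those at 1646 and 4928 bp were matched only in replicate 1. At grh-1 there were 3 intronic summits (49.2 to 56.2), none matched in both replicates. The body of lin-26 held 1, in its 3′ UTR (45.3, replicate 1 only) and in the promoter window of the following gene F18A1.1. The bodies of rnt-1, the longest gene of the set with 12519 bp, bro-1, nhr-73 and nhr-74 held no pooled summit.

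Within 10 kb upstream, most genes of any kind had a relaxed summit. Such summits were found at 9 of 10 genes, against 91.8% of all genes, and numbered 0.23 per kb against 0.306 per kb for all genes. Each replicate list likewise marked 9 of 10 (backgrounds 92.2% and 93.1%), and summits matched in both were found upstream of 5 of 10 (60.1%), namely rnt-1, nhr-23, nhr-25, blmp-1 and grh-1. In promoter windows the densities were 0.25 and 0.359 per kb. Of the 23 upstream summits at the 10 genes only 7 lay before the nearest other coding gene, at rnt-1, bro-1, ceh-16, nhr-25 and blmp-1. This made 5 of 10 genes with such a summit, against 38.6% of all genes. Of those 7, only the site 5290 bp upstream of nhr-25 was matched in both replicates, at low rank in each (24.7 at rank 25013 and 23.5 at rank 26042).

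The strongest upstream sites below the IDR list belonged to grh-1 and rnt-1. At grh-1 a summit 5870 bp upstream had a signal of 85.6 at rank 4001, the highest of the 33 summits outside the IDR list. Its −log10 q was 0.554, against at least 1.176 on the IDR list. Replicate 1 gave 44.8 at rank 4856 and replicate 2 gave 51.5 at rank 3022, both within 4 bp. A second site 5110 bp upstream was also present in both, with a pooled signal of 72.5 and replicate signals of 33.1 and 38.5. Both lay in intergenic sequence beyond Y48G8AR.8. With the IDR site at 9207 bp, grh-1 thus had 3 upstream summits at rank 6183 or better. At rnt-1 the summit 1596 bp upstream (77.8, rank 5095) lay 88 bp before the start of hil-5, a linker histone gene, and inside its promoter window. It was matched in replicate 1 (35.4, rank 9695), while the nearest replicate 2 summit was 109 bp away (50.2, rank 3189).

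Outside promoter windows, the remaining upstream summits at the other genes were weaker, from 41.7 to 68.5. The highest of these was the lin-26 site in the lir-1 intron (68.5, rank 7248), which was found in replicate 2 (37.4, rank 7061, 48 bp away) but not in replicate 1. At bro-1 a site 8400 bp upstream in a coding exon of npp-6 (64.8) was matched within 100 bp in replicate 2 only. The nearest replicate 1 summit was 110 bp away (28, rank 18609), just past the limit. A site of bro-1 at 5076 bp (59.9) lay in the promoter window of slx-1. The sites of ceh-16 at 6574, 6359 and 3439 bp (41.9 to 58.9) lay at the neighbouring genes C06E1.11 and C13G5.2, and none was matched in both replicates. The blmp-1 sites at 6176 bp and 1683 bp (56.7 and 60.6) were matched in replicate 1 only.

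The neighbouring receptor genes nhr-73 and nhr-74 on chromosome I were the emptiest. No summit of any list lay in the promoter window, the gene body or the 10 kb upstream of nhr-73, which was true of 288 of 19973 genes (1.44%). Within the same regions nhr-74 had a single pooled summit, 9216 bp upstream in a coding exon of Y53H1C.3 (45.4, rank 22871), matched in replicate 1 only (25.3, rank 23625). The genes point towards each other, so their upstream regions do not overlap. The IDR summit nearest to both was the same, in the promoter windows of ego-2 and Y53H1C.3 (signal 119, rank 2058), 12245 bp upstream of nhr-74.

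**Figure D4:**
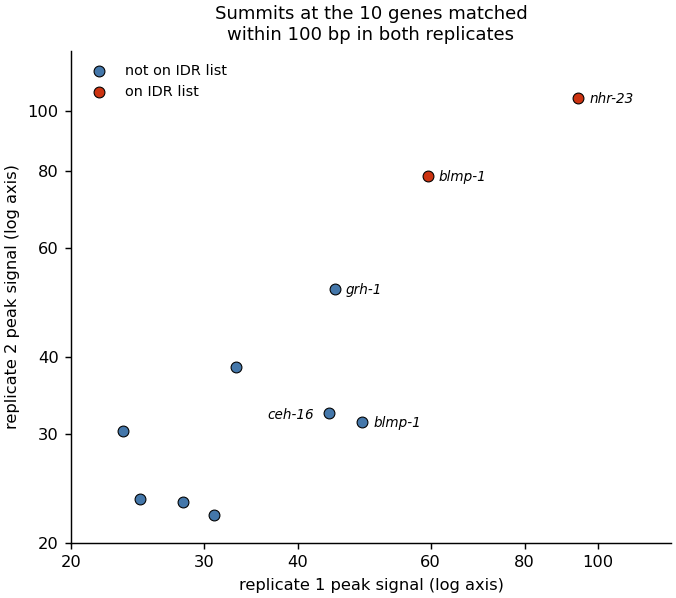
Replicate 1 signal against replicate 2 signal, both on log axes, for the 10 pooled summits at these genes that were matched within 100 bp in both replicates. The IDR sites of nhr-23 (94.3 and 105) and blmp-1 (59.5 and 78.6) stand at the upper right, and the intronic sites of ceh-16 (44 and 32.4) and blmp-1 (48.7 and 31.4) lie below the site of grh-1 (44.8 and 51.5), at similar replicate 1 signal.

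Across all 36 summits, 10 were matched in both replicates, 16 in replicate 1 only, 8 in replicate 2 only and 2 in neither. As shares these were 27.8%, 44.4%, 22.2% and 5.56%. For all pooled entries the same shares were 32.7%, 28.8%, 26.4% and 12.1%. Leaving out the IDR peaks, the shares were 24.2% (8 of 33) at these genes and 27.9% for all pooled entries outside the IDR list. By gene, 6 had at least 1 summit matched in both replicates in some region, which were rnt-1, ceh-16, nhr-23, nhr-25, blmp-1 and grh-1, against 66.8% of all genes. The genes lin-26, bro-1, nhr-73 and nhr-74 had none. The 36 summits lay in intergenic sequence in 13 cases, in introns in 11, in coding exons in 9 and in untranslated regions in 3, and 7 of them were in the promoter window of another coding gene. These places were not compared with those of all pooled entries, so the counts only describe the 36.

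The 10 promoter windows had a median GC content of 37.97%, from 31.6% at grh-1 to 41.6% at nhr-25, and the median over all genes was 34.97%. The nearest coding gene upstream was at a median of 2590.5 bp, against 938 bp for all genes, and ranged from an overlap at lin-26 to 8850 bp at nhr-25. Of the 10 genes 7 lie on chromosome I.

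Other regulators of the epidermis and of seam timing gave a context of 14 genes, which were elt-1, elt-3, egl-18, elt-6, lin-22, pax-3, lin-29, mab-10, hbl-1, egl-27, bed-3, myrf-1, nhr-85 and lin-42. An IDR promoter summit was found at 1 of 14 (7.14%, against 6.99% of all genes), namely myrf-1, which encodes a membrane-bound transcription factor that acts in molting. It lay 296 bp upstream with a signal of 154 at rank 1362, and the nearest replicate summits were 81 bp and 20 bp away at ranks 964 and 3213. Within 10 kb upstream myrf-1 was again the only 1 of 14 with an IDR summit (7.14%, against 21.0% of all genes). In gene bodies 2 of 14 had an IDR summit (14.3%, against 2.66% of all genes). That of lin-42, the period homologue, was in an intron 5325 bp from the start (177, rank 1090), and that of egl-27, an MTA1-like gene, was in an intron 7714 bp from the start (136, rank 1704). The relaxed list marked 6 of 14 promoter windows (42.9%, against 36.7% of all genes) and 13 of 14 gene bodies (92.9%, against 49.3%), counts that were not tested. A longer gene gives a summit more room, and neither gene body share was adjusted for the lengths of these 14 genes.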

How the data were processed

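PAX-3-GFP ChIP-seq peaks of 2 biological replicates were analysed as deposited. Per the labels, chromatin was sonicated to 200 to 800 bp. Per the accompanying notes of the authors, the lists are on build ce11 and each replicate list was made from its own alignments with a control, the pooled list from both, and the IDR list from all of them. No source used here names the aligner, the peak caller or the IDR threshold. The deposited signal per peak was read from the seventh narrowPeak column. The deposited −log10 of a q-value was read for description only. The 2139 IDR peaks equal the pooled peaks of highest signal. Within 100 bp, 2016 of them had a summit in both replicate lists and 4 in neither. The replicate lists had no identical entry.

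Summits were placed on Ensembl release 115 genes (WBcel235) with pandas 2.3.3 under Python 3.11.15, using numpy 2.4.6, and plotted with matplotlib 3.10.9. The counting was tested on simulated data, where all 200 planted genes were recovered for each of the regions. No test was made, since 1 group of 2 replicates gives none and the members and lists were chosen with earlier results of these data known. Text names all 10 genes, the genes sharing their summits and the context genes with an IDR summit. Alternatives changed the windows, gene starts, list depth, matching distance and replicates used. The limit beside a share of 0 is 3 divided by the number examined and reflects counting error alone.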

Additional observations from a re-analysis of the deposited data

How the results depend on the processing

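The IDR counts in promoter windows and gene bodies were 0 of 10 under every alternative run. These included 500 and 2000 bp windows, overlap of whole peaks and the highest peaks of each replicate alone. That epidermal regulators had no IDR promoter peak was known when the genes were listed. Of 47 alternative values of the summary results, 38 stayed within 1.5 times the reported count, or for the median rank within 1 SD of the replicates, and 9 did not. An alternative that only narrowed a window, a list or the matching distance could not change a count of 0, as with the 500 bp windows. Such values are among the 38 and say nothing about stability. The IDR count within 10 kb upstream fell from 3 to 0 when the region ended at the nearest coding gene, to 1 within 5 kb (13.9% of all genes) and to 1 in the upper part of the IDR list (12.8%). The relaxed promoter count moved from 3 to 5 with every transcript start and to 0 with the 10000 strongest pooled peaks (17.6% of all genes), the gene body count from 6 to 2 there (18.3%), and the relaxed upstream count from 9 to 5 up to the nearest coding gene. Promoter summits matched in both replicates went from 0 to 1 with every transcript start (nhr-25, 19.3% of all genes). They also went to 1 with matching within 200 bp (ceh-16, 20.3%).

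A single replicate has no IDR list, so leaving out a replicate meant cutting the other relaxed list at its 2139 peaks of highest signal. This gave an upstream count of 2 of 10 in replicate 2 (nhr-23 and blmp-1), against 21.1% of all genes. In replicate 1 it gave 3 of 10 (rnt-1, nhr-23 and grh-1), against 20.5%. The relaxed counts were 4 in promoter windows (36.7% to 37.5% of all genes) and 4 to 6 in gene bodies (49.6% to 49.7%). The median rank of the strongest summit per gene was 5386 in the pooled list and 5069 to 6121 in the replicates, and 8 of 27 alternative values of the rank of a single gene moved by more than 1 SD of the replicates. These were lin-26 (7248 to 17673) and blmp-1 (1597 to 2452) in replicate 1, ceh-16 (5386 to 11084) and nhr-25 (14085 to 7852) in replicate 2, and rnt-1 (5095 to 2039 and 3189) and bro-1 (8587 to 7100 and 6121) in replicates 1 and 2. In some of these the strongest summit was a different site. In replicate 1 it lay 3005 bp upstream at lin-26, 5201 bp at bro-1 and 9974 bp at rnt-1. In the pooled list it lay 3632, 8400 and 1596 bp upstream of these genes. At nhr-25 it lay 5290 bp upstream in the pooled list and 3657 bp in replicate 2. Those values compare different sites and not 1 site between lists. The causes of the other moves were not tested. The SD, also for the median rank, was that of the 2 replicate values being judged. Replicates that differ widely can therefore count as unmoved, as at nhr-74 (22871 to 16695 and 25517). The count of 8 is thus no measure of stability. No paired analysis was possible because there was 1 group. The lists hold no read counts, so depth and its limits are unknown.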

Other observations

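Genes that build the epidermis gave a further view, from 23 genes of cell junctions, cell fusion, the apical matrix and the cuticle. These were ajm-1, dlg-1, let-413, hmr-1, hmp-1, hmp-2, vab-10, sma-1, che-14, lrp-1, eff-1, aff-1, noah-1, noah-2, fbn-1, mlt-10, mlt-11, bli-1, dpy-7, rol-6, nas-37, wrt-2 and wrt-10. An IDR summit was found in 0 of 23 promoter windows and 0 of 23 gene bodies, each of which allows a share of up to 13%, against 6.99% and 2.66% of all genes. Within 10 kb upstream 3 of 23 had one, against 21.0% of all genes, and in none of them did it lie before the nearest coding gene. These were sma-1, a spectrin gene, nas-37, which encodes a protease of molting, and wrt-2, a hedgehog-related gene. The site at wrt-2 was 5658 bp upstream in the promoter window of sec-3 (signal 207, rank 835), with summits at ranks 1027 and 734 in the replicates. The stronger of the sites at nas-37, 9696 bp upstream, lay in the promoter window of ZC506.1 (355, rank 361, replicate ranks 457 and 303). The relaxed list marked 7 of 23 promoter windows (30.4%, against 36.7% of all genes). It marked 18 of 23 gene bodies (78.3%, against 49.3%), a share not adjusted for gene length. Upstream it marked 22 of 23 genes (95.7%, against 91.8%). These counts were not tested.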
